A study of Rattus norvegicus with 48 samples.

Results

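MicroRNAs of the miR-199a and miR-214 hairpins were followed in the livers of rats given thioacetamide (TAA), a hepatotoxic compound used to produce liver fibrosis in rodents. The members were all mature miRNAs whose names begin with rno-miR-199a- or rno-miR-214-. This gave 4 of the 764 mature miRNAs listed in the count file: rno-miR-199a-3p, rno-miR-199a-5p, rno-miR-214-3p and rno-miR-214-5p. Male Sprague-Dawley rats received TAA once daily at 4.5 mg/kg (low), 15 mg/kg (middle) or 45 mg/kg (high) for 3, 7, 14 or 28 days, and control rats received vehicle for the same times. A time point is written with -d, as in 28-d. Small RNA from the liver of 3 rats in each of these 16 groups was sequenced, giving 48 libraries. Each label ends in a running number, 1 to 48 over the series, and this number serves as the replicate number here. The samples are pieces of whole liver, so that fewer cells of a type and less RNA per cell cannot be told apart.

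A microRNA hairpin is cut into a duplex of a 5p and a 3p strand, and either strand can be loaded into an Argonaute protein and pair with messenger RNAs through its seed, the bases near its 5′ end. miR-199a and miR-214 are made from a shared long noncoding transcript that lies antisense within the dynamin 3 gene in mammals, and they are known as miRNAs of mesenchymal cells such as fibroblasts, pericytes and smooth muscle. In the liver they are linked to hepatic stellate cells, the cells that turn into collagen-producing myofibroblasts, and raised levels have been described in fibrotic liver of rodents and people.

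The sequences are shown because the strands are told apart by them and because each has a seed of its own. They were taken from RefSeq annotation of the rat build GRCr8, in which all 4 members were found among 693 mature miRNA names. Capitals mark the seed, bases 2 to 8 from the 5′ end.
rno-miR-199a-5p: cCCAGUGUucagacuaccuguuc
rno-miR-199a-3p: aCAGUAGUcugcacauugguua
rno-miR-214-3p: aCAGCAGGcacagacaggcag

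This annotation places both miR-199a strands in the Mir199a2 hairpin on the plus strand of chromosome 13, with miR-199a-5p at chr13:77116255-77116277 and miR-199a-3p at chr13:77116294-77116315. The count file names their precursor only as rno-mir-199a, and the counts themselves do not give the locus of a read. miR-214-3p lies at chr13:77121713-77121733 in the Mir214 hairpin, which starts 5310 bases after the end of the Mir199a2 hairpin on the same strand. None of the 3 seeds occurred in another mature rat miRNA of the table, so that the 3 miRNAs form 3 seed groups of 1.

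The strands differed widely in abundance. miR-199a-3p had a mean of 716.9 RPM, the reads of a miRNA scaled to 1000000 counts in its library, over the 48 libraries and was the 61st most abundant of the 764 miRNAs. miR-199a-5p, the other strand of the hairpin, had a mean of 208 RPM (the 105th), and miR-214-3p had a mean of 28.9 RPM (the 184th). miR-214-5p was close to absent, with 24 reads in all libraries together, between 0 and 3 reads in any one and none in 31 of 48. A count of 3 was taken as the limit of detection, so its level could not be compared between groups and it did not pass the filter of at least 5 RPM in at least 3 libraries. The other 3 members were above 5 RPM in all 48 libraries and were among the 301 miRNAs tested.

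Library totals lay between 4829217 and 14906217 counts, except for control 3-d replicate 1 with 293331. In that library the members rest on 72 reads of miR-199a-3p, 37 of miR-199a-5p and 19 of miR-214-3p, and the main 3-d values are also given without it. The summed level of 4 red blood cell miRNAs (miR-451-5p, miR-486 and both strands of miR-144) was 81096 normalized RPM in this library, where the libraries of the other 15 groups lay between 786 and 9240. The labelled tissue was checked by 5 hepatocyte miRNAs, miR-122 and miR-192 among them, whose summed level was between 124790 and 454919 normalized RPM.

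The libraries also differed in how the reads of the miR-199a hairpin were split between its strands, and the split was alike in most libraries with neighbouring running numbers. In the 23 libraries numbered 2 to 24, the share of miR-199a-5p among all miR-199a reads was 16.7% to 23.4% with a median of 19.4%. In the 15 libraries numbered 25 to 39 the median was 29.8%, and 13 of them lay between 26.7% and 34.9%, above every library numbered 2 to 24. The exceptions were high dose 7-d replicate 27 with 16.6% (exact 95% interval 15.9% to 17.3%) and low dose 28-d replicate 29 with 13.3% (12.5% to 14.1%). In the 9 libraries numbered 40 to 48 the share was 15.4% to 18%. Control 3-d replicate 1 had 33.9%, with an exact interval of 25.1% to 43.6% from 109 reads. These intervals and the limit of detection cover counting error only.

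All 12 control libraries are numbered 1 to 18. Of the treated groups, only middle dose 3-d, high dose 3-d, high dose 14-d and high dose 28-d have all 3 libraries numbered up to 24. For the other 8 conditions the treatment and the running number cannot be told apart. The labels name no batch or date, and the ranges of numbers were chosen after the values had been seen. The ratio of strands varied alike in some other hairpins. Of 80 other hairpins with both strands tested, 14 had an absolute Pearson's r above 0.6 between their log2 ratio of 5p to 3p reads and that of miR-199a over the 48 libraries, 8 of them with a positive sign, and the median absolute r was 0.289. The closest was miR-99a with r = 0.878, whose log2 ratio had a median of 4.80 in libraries 2 to 24, of 5.93 in libraries 25 to 39 and of 3.82 in libraries 40 to 48. The libraries of high dose 7-d replicate 27 and low dose 28-d replicate 29 had 3.55 and 3.27 for miR-99a, so that they left the range of their neighbours for both hairpins.

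**Figure D1:**
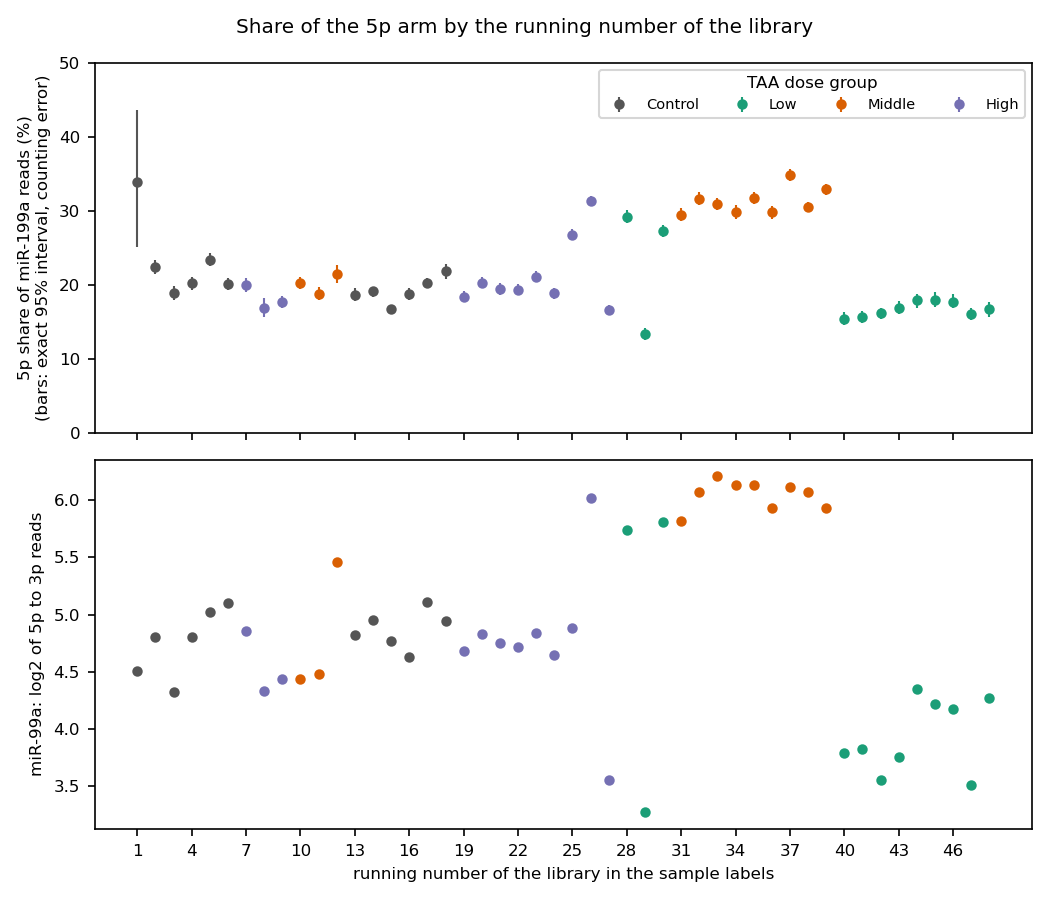
The upper plot gives the share of miR-199a-5p among all miR-199a reads (%) in each library against its running number in the labels, with exact 95% intervals as bars and the dose group as colour, and the lower plot gives the log2 ratio of 5p to 3p reads of miR-99a. Of the 15 libraries numbered 25 to 39, 13 lie between 26.7% and 34.9%, and the 9 numbered 40 to 48 lie between 15.4% and 18%.

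Levels and changes are given below as upper quartile normalized RPM, which scales each library by the upper quartile of its counts. Each dose was compared with the control rats of its time point by edgeR's quasi-likelihood F-test, and a miRNA was called, after the study's own thresholds, when its unadjusted p-value was below 0.05 and its fold change above 1.5. Adjusted p-values are Benjamini-Hochberg values over all 301 miRNAs. The 3 doses of a time point share their 3 controls.

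miR-199a-3p, the strand with most reads, was called in the fewest conditions of the 3 tested members. In controls its level was 505 ± 262.5 (SD, n = 3) after 3 days, 647.1 ± 27.8 after 7, 918.5 ± 253.1 after 14 and 831.3 ± 128.5 after 28. Without the shallow library the 3-d controls had 656.1 ± 30.1 (n = 2). In low-dose rats it was 698.1 ± 53.6, 683 ± 19.9, 829.9 ± 106 and 624.6 ± 1.33 in the same order. These values show no steady course with time at the low dose. Middle-dose rats had 668.6 ± 102.3, 639.8 ± 68.7, 648.7 ± 90.4 and 710.2 ± 126.4, and high-dose rats had 883.7 ± 130.2, 861.7 ± 148.9, 604.8 ± 12.1 and 738.9 ± 100.3. The order of the 16 groups ran from control 3-d to control 14-d, and without the shallow library the lowest group was the high dose at 14-d. For 14 of 15 neighbouring pairs in this order the individual values overlapped.

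The only call of miR-199a-3p was at the high dose at 14-d, where 9.3% of all tested miRNAs were called. The 3 high-dose rats had 618.7, 598.8 and 597 normalized RPM, and the 3 controls had 692, 1192 and 871.9. The groups did not overlap, but control replicate 14 was the highest of all libraries, whose median was 682.4. The log2 fold change was -0.60 ± 0.193 (SE), with an edgeR adjusted p of 0.145. Without control replicate 14 it was -0.37 and no longer called, and against all 12 controls pooled it was -0.26 with an adjusted p of 0.934.

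At the high dose, miR-199a-3p was above all time-matched controls in every rat of the 3-d and the 7-d group without being called. At 7-d the high-dose rats had 789.3, 762.8 and 1033 against 668.5, 615.6 and 657.2 in controls, a log2 fold change of 0.41 ± 0.172 (edgeR adjusted p = 0.158), which is under the fold threshold. At 3-d the high-dose rats had 883.8, 1014 and 753.5 against 203, 634.8 and 677.4, a log2 fold change of 0.80 ± 0.498 (edgeR adjusted p = 0.486). The value of 203 belongs to the library of lowest depth, and leaving out each library in turn gave log2 fold changes between 0.43 and 1.07. At the low dose at 28-d the 3 rats lay within 623 to 625.4, all below the controls of 754.8, 979.6 and 759.4, with a log2 fold change of -0.41 ± 0.206 that was not called (edgeR adjusted p = 0.4).

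**Figure D2:**
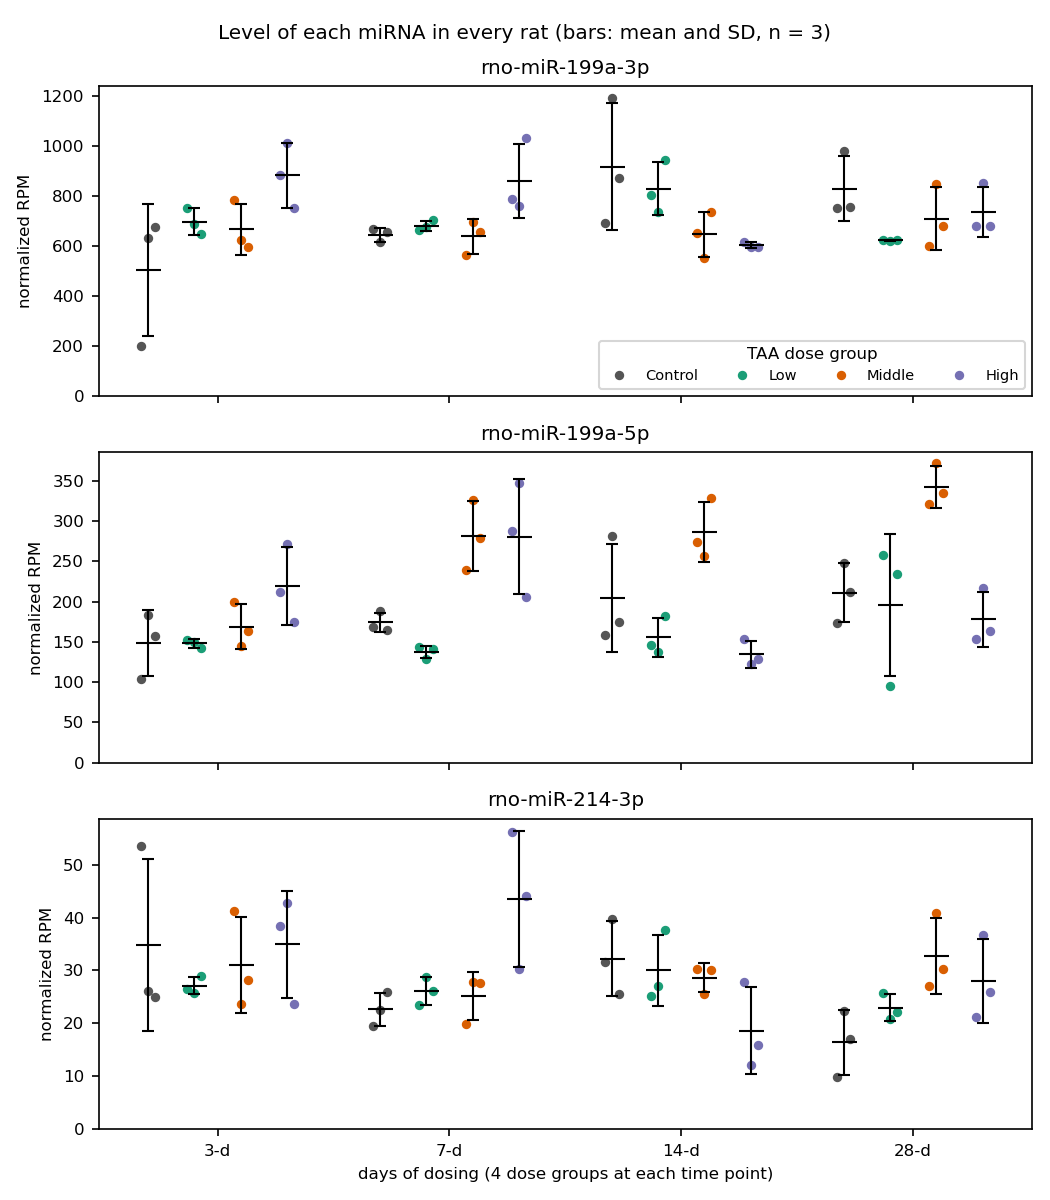
Upper quartile normalized RPM of rno-miR-199a-3p, rno-miR-199a-5p and rno-miR-214-3p in every rat, by days of dosing and dose group (colour), with the mean and SD of 3 rats as bars. miR-199a-3p is low in control 3-d replicate 1 (203), miR-199a-5p is highest in the middle dose 28-d group (342.7), and miR-214-3p is highest in the high dose 7-d group (43.5).

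miR-199a-5p, the less abundant strand of the hairpin, was the only tested member that passed a test of differences between doses when all 48 libraries were used. In controls its level was 148.5 ± 40.5 (SD, n = 3) after 3 days, 174.1 ± 12.1 after 7, 204.6 ± 66.6 after 14 and 211.1 ± 37 after 28. Without the shallow library the 3-d controls had 170.6 ± 18.5 (n = 2). In low-dose rats it was 148.5 ± 5.48, 137.7 ± 7.64, 155.4 ± 24.1 and 196 ± 88. From 7-d on, middle-dose rats stood above them. The middle-dose levels were 169 ± 27.6, 281.4 ± 43.1, 286.5 ± 37.4 and 342.7 ± 25.8, and the high-dose levels were 219.3 ± 48.5, 280.4 ± 71.3, 134.8 ± 16.9 and 178.1 ± 34.2. The lowest group was that of the high dose at 14-d and the highest that of the middle dose at 28-d, and all 15 neighbouring pairs in the order overlapped.

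miR-199a-5p was called in 4 of 12 conditions. At the middle dose at 7-d, where 15.9% of all tested miRNAs were called, the rats had 239.7, 325.9 and 278.6 against 169.1, 187.9 and 165.3 in controls. Every treated rat was above every control, with a log2 fold change of 0.69 ± 0.125 (edgeR adjusted p = 0.00432). At the middle dose at 28-d (32.9% called) the rats had 321.7, 371.5 and 334.7 against 174, 247.9 and 211.6, again without overlap, with a log2 fold change of 0.70 ± 0.182 (edgeR adjusted p = 0.0156). At the high dose at 7-d (21.3% called) the rats had 287.9, 347.6 and 205.6, a log2 fold change of 0.69 ± 0.215 that did not pass the adjusted threshold (edgeR adjusted p = 0.0834). All of these were above the controls, and the lowest, replicate 27, was the library with a strand share of 16.6%.

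Each of the 3 higher calls was lost without a single library, at log2 fold changes of 0.57 without middle-dose replicate 35 at 7-d, 0.58 without control replicate 16 at 28-d and 0.50 without high-dose replicate 26 at 7-d. Against all 12 controls pooled the 3 were still called, at 0.60 (edgeR adjusted p = 0.132), 0.89 (0.00789) and 0.60 (0.094). The 9 libraries behind these calls are numbered 25 to 27 and 34 to 39, where the 5p share was high in all but replicate 27, and the controls are numbered 4 to 6 and 16 to 18. In the same libraries miR-199a-3p, from the same hairpin, had log2 fold changes of -0.02 and 0.41 at the middle and the high dose of 7-d and of -0.23 at the middle dose of 28-d. The part of the running number in the higher calls of miR-199a-5p cannot be told apart from that of the dose. At the middle dose at 14-d, also numbered in this range (31 to 33), the rats had 274.1, 256.9 and 328.6 against 158.5, 280.9 and 174.3 in controls, and the log2 fold change of 0.49 ± 0.214 was under the fold threshold (edgeR adjusted p = 0.122). It was called without control replicate 14 (0.78), against all 12 controls pooled (0.63) and with library size alone (0.64).

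The fourth call of miR-199a-5p was lower, at the high dose at 14-d, with 154, 122.1 and 128.3 against 158.5, 280.9 and 174.3. The groups did not overlap, the nearest rats having 154 and 158.5, and the log2 fold change was -0.60 ± 0.235 (edgeR adjusted p = 0.188). Without control replicate 14 it was -0.30, and it was also not called without high-dose replicate 8 (-0.54) or 9 (-0.57). At the low dose at 7-d the rats had 143.2, 129 and 141, all below the controls, and the log2 fold change of -0.34 ± 0.105 had an edgeR adjusted p of 0.0303 but was under the fold threshold. At the low dose at 28-d, replicate 29 had 95.3 normalized RPM where replicates 28 and 30 had 258 and 234.6, and this is the library whose 5p share was 13.3%.

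miR-214-3p, from the second hairpin of the transcript, had counts between 62 and 669 in all libraries but the shallowest. In controls its level was 34.9 ± 16.2 (SD, n = 3) after 3 days, 22.6 ± 3.19 after 7, 32.2 ± 7.1 after 14 and 16.4 ± 6.2 after 28. Without the shallow library the 3-d controls had 25.5 ± 0.856 (n = 2). In low-dose rats it was 27.1 ± 1.59, 26.1 ± 2.72, 30 ± 6.72 and 23 ± 2.56. The control 28-d group was thus the lowest of the 16. Middle-dose rats had 31 ± 9.16, 25.2 ± 4.54, 28.7 ± 2.67 and 32.8 ± 7.24, and high-dose rats had 35 ± 10.1, 43.5 ± 12.9, 18.6 ± 8.24 and 28 ± 7.98. All 15 neighbouring pairs in the order of the groups overlapped.

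miR-214-3p was called in 4 of 12 conditions, 3 of them higher. At the high dose at 7-d, where 21.3% of tested miRNAs were called, the rats had 56.1, 30.4 and 44 against 19.5, 22.5 and 25.9 in controls. Each treated rat was above each control, and the log2 fold change was 0.94 ± 0.256 (edgeR adjusted p = 0.0502). This was still called in all 6 fits that left out a library and, at 0.77 (edgeR adjusted p = 0.125), against all 12 controls pooled. These high-dose libraries are numbered 25 to 27.

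At 28-d, miR-214-3p was higher at the middle and the high dose. The middle-dose rats had 27.1, 40.9 and 30.3 and the controls had 9.93, 22.3 and 17, with no overlap and a log2 fold change of 1.00 ± 0.278 (edgeR adjusted p = 0.019). In that condition 32.9% of tested miRNAs were called. The high-dose rats had 21.2, 36.8 and 26, which overlap the controls at 1 rat, with a log2 fold change of 0.77 ± 0.304 (edgeR adjusted p = 0.136) where 15.3% of tested miRNAs were called. Both calls were lost against all 12 controls pooled, with log2 fold changes of 0.36 ± 0.311 and 0.13 ± 0.323 (edgeR adjusted p = 0.431 and 0.944). The high-dose call was also lost without control replicate 16 (0.50), control replicate 18 (0.80) or high-dose replicate 20 (0.53).

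At the high dose at 14-d, miR-214-3p was called lower, with 27.9, 12.1 and 15.9 against 31.6, 39.6 and 25.5. The groups overlapped at 1 rat and the log2 fold change was -0.78 ± 0.31 (edgeR adjusted p = 0.188). It was lost when high-dose replicate 8 (-0.56) or 9 (-0.67) or control replicate 13 (-0.79) or 14 (-0.60) was left out. Without high-dose replicate 7, the rat that overlapped the controls, it was -1.19 ± 0.254 (edgeR adjusted p = 0.0284). All 3 tested members were called lower in this condition, from the same 6 libraries, where 11 of the 301 tested miRNAs were called lower. The high-dose rats are numbered 7 to 9 and the controls 13 to 15. Control replicate 14 was the highest 14-d control for each member (1192, 280.9 and 39.6 normalized RPM). With all 6 libraries none of these 3 calls had an adjusted p below 0.05 or held against all 12 controls pooled.

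**Figure D3:**
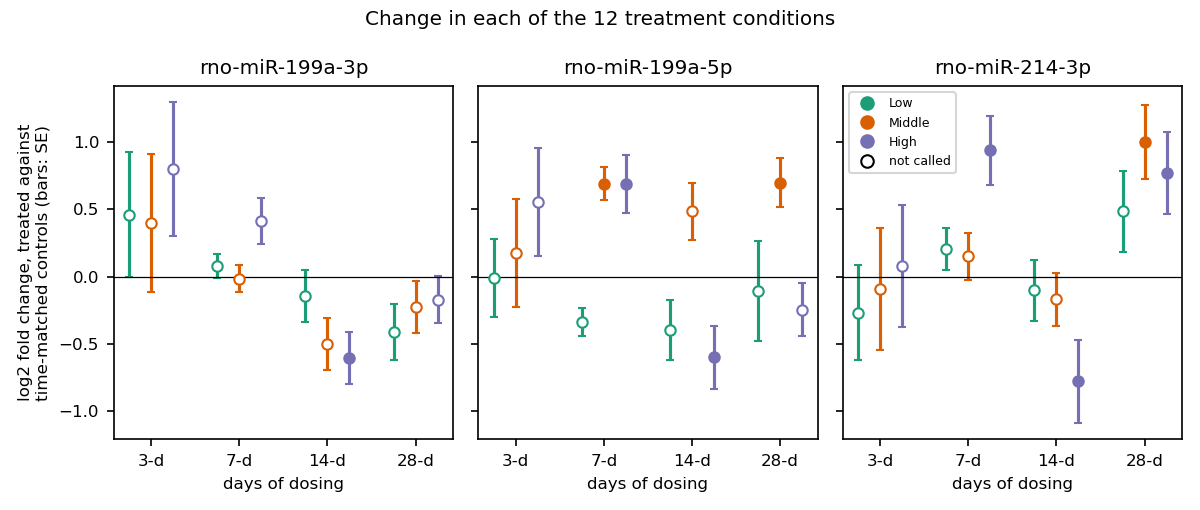
Log2 fold change of treated against time-matched control rats with its SE for the 3 tested members in the 12 conditions, by days of dosing and dose (colour); filled points were called and open points were not. All 3 members are called lower at the high dose at 14-d (-0.60, -0.60 and -0.78), and miR-214-3p is at 1.00 at the middle dose at 28-d.

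The members were called about as often as many other miRNAs. Of the 301 tested miRNAs, 66 (21.9%) were called in at least 4 of the 12 conditions, as miR-199a-5p and miR-214-3p were, and 231 (76.7%) in at least 1, as miR-199a-3p was. No member was called in the conditions of 3-d, where 16.6%, 2.99% and 11.3% of all miRNAs were called at the low, middle and high dose. Without control 3-d replicate 1 no member was called at 3-d either. None was called at the low dose at 7-d (28.9% of all), 14-d (32.6%) or 28-d (12.3%), nor at the middle dose at 14-d (17.3%). With the adjusted p-value below 0.05 and the same fold threshold, 2 conditions were called for miR-199a-5p, 1 for miR-214-3p and 0 for miR-199a-3p, which had an unadjusted p-value below 0.05 in 3 conditions.

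A call in one condition and not in another does not show that the effects differ, so the differences were tested in a single edgeR fit of all 48 libraries, with an adjusted p-value below 0.05 as threshold. miR-199a-5p differed between the 3 doses at 7-d (adjusted p = 0.00546, where 25.9% of all miRNAs passed), at 14-d (0.00209, 29.2% passed) and at 28-d (0.0137, 10.6% passed). At each of these times the middle dose had the highest mean. At 7-d and 14-d the low-dose libraries are numbered within 40 to 48 and the middle-dose libraries within 31 to 36, and at 28-d the high-dose libraries are numbered 19 to 21 and those of the low and middle dose within 28 to 39, so that these dose differences and the running number cannot be told apart. The difference at 28-d was lost without middle-dose replicate 38 (0.0691) or 39 (0.0628). At 3-d, 16.6% of miRNAs differed between doses and no member did (edgeR adjusted p = 0.38, 0.235 and 0.666 for miR-199a-3p, miR-199a-5p and miR-214-3p, and 0.102, 0.15 and 0.568 without control 3-d replicate 1). With all 48 libraries, miR-199a-3p and miR-214-3p did not pass the dose test at any time point, and the lowest adjusted p was that of miR-214-3p at 7-d (0.0572). Without control 3-d replicate 1, miR-214-3p passed at 7-d (0.0307) and miR-199a-3p at 14-d (0.0457). Over the 48 fits that each left out 1 library, miR-214-3p passed at 7-d in 8, at adjusted p-values of 0.0247 to 0.325, and in 1 at 14-d, without high-dose replicate 7 (0.0255), and miR-199a-3p passed at 14-d in 1.

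The effect of the high dose differed between time points for all 3 tested members, where 21.3% of all miRNAs passed. The edgeR adjusted p was 0.0162 for miR-199a-3p, 0.0268 for miR-199a-5p and 0.0162 for miR-214-3p. The course was alike in that each had its lowest log2 fold change after 14 days. Over the 3 time points at which high-dose and control libraries are all numbered 1 to 24 (3-d, 14-d and 28-d), the same test gave adjusted p-values of 0.141, 0.146 and 0.155 in the order above, so that no difference passed there. Without high-dose 14-d replicate 8 the call was lost for miR-199a-5p (0.0504) and miR-214-3p (0.0513), and for miR-199a-5p also without control 14-d replicate 14 (0.0537). Without the filter on low counts no member passed (0.0796, 0.164 and 0.106 in the order above), and with library size alone miR-199a-3p (0.05) and miR-199a-5p (0.0888) did not. No member differed over time at the low dose (4.98% of all miRNAs passed) or the middle dose (0.997% passed).

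The level in control rats itself changed over time for 33.6% of all miRNAs. It did so for miR-199a-3p, between 505 at 3-d and 918.5 at 14-d (edgeR adjusted p = 0.0226), and for miR-214-3p, between 34.9 at 3-d and 16.4 at 28-d (adjusted p = 0.0368), and not for miR-199a-5p (adjusted p = 0.377). Both calls rest in part on the shallow library. Without control 3-d replicate 1 the edgeR adjusted p was 0.0584 for miR-199a-3p and 0.0734 for miR-214-3p, and without control 14-d replicate 14 it was 0.0708 and 0.0865. The call of miR-214-3p was also lost without control 28-d replicate 16 (0.181) or 18 (0.0929) or control 14-d replicate 13 (0.0558).

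The ratio of 2 members within a library needs no normalization between libraries, and it was compared between the 9 treated rats of all doses and the 3 controls at each time point by a 2-sided exact permutation test, with 8 such tests in all. The 28-d controls had 1.32, 2.27 and 2.23 miR-214-3p reads for every 100 of miR-199a-3p. The treated rats of 28-d had 4.13, 3.35 and 3.55 at the low dose, 4.51, 4.82 and 4.44 at the middle dose and 3.10, 4.30 and 3.82 at the high dose. All 9 treated rats were above all 3 controls. The high-dose libraries are numbered 19 to 21 and the controls 16 to 18. The 28-d controls were also below the controls of other times. Those of 7-d had 2.92, 3.65 and 3.94, those of 14-d had 4.56, 3.33 and 2.92, and control 3-d replicates 2 and 3 had 4.11 and 3.67. Most treated rats of 28-d thus lay within the range of these earlier controls.

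The mean log2 ratio of miR-214-3p to miR-199a-3p at 28-d was -4.65 ± 0.214 (SD, n = 9) in treated rats and -5.72 ± 0.448 (n = 3) in controls, a difference of 1.07 (exact p = 0.00455, the smallest this design can give, 0.0364 after adjustment over the 8 tests). The difference of this ratio was 0.27, 0.02 and -0.87 at 7-d, 14-d and 3-d in turn, with exact adjusted p-values of 0.473, 0.973 and 0.461. At 3-d it was 0.07 without control replicate 1, which had 26.4 miR-214-3p reads for every 100 of miR-199a-3p where the other 47 libraries had 1.32 to 7.11. The log2 ratio of miR-199a-5p to miR-199a-3p did not pass the adjusted threshold at any time point (exact adjusted p = 0.145 at 3-d and 0.647 to 0.712 at later times). Its differences were -0.47, 0.18, 0.25 and 0.35 in the order of time.

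**Figure D4:**
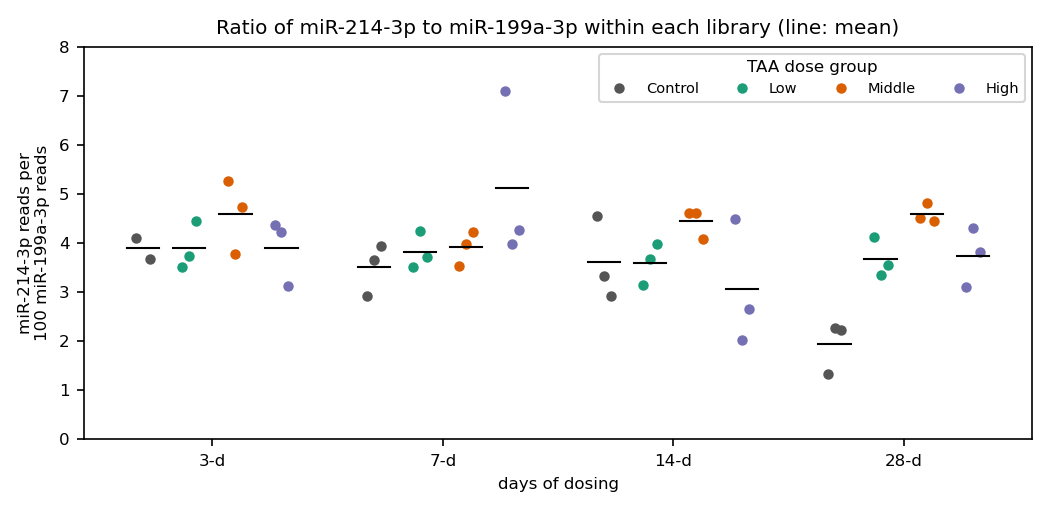
Reads of miR-214-3p for every 100 reads of miR-199a-3p in each library, by days of dosing and dose group (colour), with the group mean as a line; control 3-d replicate 1, at 26.4 from 19 and 72 reads, is left out of the plot. The 3 controls of 28-d lie between 1.32 and 2.27, below all 9 treated rats of that time point and below the plotted controls of the other times.

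The co-variation of the members was computed as 18 relations, with p-values adjusted over them. The permutations shuffled the libraries of a relation without regard to their groups. Deviations within a group depend on each other and their spread differs between groups, so that the p-values of deviations are approximate and can be too small. As deviations from the 16 group means, the levels of miR-199a-3p and miR-199a-5p had Pearson's r = 0.519 over the 48 libraries (permutation p = 0.00068, adjusted 0.00306) and Spearman's rho = 0.602 (adjusted permutation p = 0.00012), with r = 0.5 without the 2 libraries farthest from the median. Within the ranges of running numbers r was 0.874 in libraries 2 to 24 (n = 23), 0.177 in libraries 25 to 39 (n = 15) and 0.801 in libraries 40 to 48 (n = 9), the last of which was 0.277 without the 2 farthest. These 3 values are a description only, because the ranges were drawn from the ratio of the same strands, which is nearly constant within the first and the last range and holds replicates 27 and 29 in the middle one.

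As deviations from the group means, miR-199a-3p and miR-214-3p, from neighbouring hairpins, had r = 0.0168 (permutation p = 0.91, adjusted 0.91). Their rho was 0.409 (adjusted permutation p = 0.0113), and r was 0.476 without the 2 farthest. In libraries 25 to 39 these 2 miRNAs had r = 0.805 (n = 15, permutation p = 0.00052, adjusted 0.00306), with rho = 0.893 (adjusted permutation p = 9e-05) and r = 0.757 without the 2 farthest. In libraries 2 to 24 they had r = 0.479 (n = 23, permutation p = 0.0208, adjusted 0.0511) and rho = 0.393 (adjusted permutation p = 0.0971), and r = 0.285 without the 2 farthest. With control 3-d replicate 1 included, r in libraries 1 to 24 was -0.08 (permutation p = 0.703, adjusted 0.745). In libraries 40 to 48 the same pair had r = 0.661 (n = 9, adjusted permutation p = 0.134), rho = 0.1 and r = -0.0363 without the 2 farthest. As deviations from the group means, miR-199a-5p and miR-214-3p had r = 0.314 (adjusted permutation p = 0.0516) and rho = 0.434 (adjusted permutation p = 0.00842). In libraries 2 to 24 they had r = 0.563 (n = 23, permutation p = 0.00515, adjusted 0.0185) and rho = 0.453 (adjusted permutation p = 0.0533), and r = 0.407 without the 2 farthest. All values within a range of running numbers are a description only, because the ranges were drawn after the values had been seen. Their permutations also took no account of the dose and time groups, so that differences between groups enter these values.

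The other tested miRNAs most like each member were found by Pearson's r of log2 levels over all 48 libraries, as a description. They were miR-872-5p (0.799), miR-155-5p (0.779) and miR-26b-3p (0.764) for miR-199a-3p, but without control 3-d replicate 1 these values fell to 0.481, 0.49 and 0.506. For miR-199a-5p they were miR-212-5p (0.808), miR-362-5p (0.8) and miR-186-5p (0.763), with 0.796, 0.8 and 0.79 without that library. For miR-214-3p they were miR-212-3p (0.678), miR-425-3p (0.615) and miR-872-3p (0.613). The members themselves were left out of this ranking. Among them, r was 0.374 for the miR-199a strands, 0.0982 for miR-199a-3p and miR-214-3p and 0.314 for miR-199a-5p and miR-214-3p. Without control 3-d replicate 1 the first 2 were 0.27 and 0.508. All of these values share the same libraries, with their depth and running number.

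Other miRNAs linked to liver fibrosis or to the cells of the liver were counted under the same call rule. Over the 12 conditions, all 301 tested miRNAs gave 436 higher and 216 lower calls in 3612 tests. The 7 miRNAs described as pro-fibrotic or raised in fibrosis gave 4 higher and 2 lower calls in 84 tests. miR-21-5p, which is raised in many injured tissues, gave 3 of the higher calls, at 3-d in low-dose rats (log2 fold change 0.78) and in high-dose rats both at 3-d (1.02) and at 7-d (0.59), and was called lower at the high dose at 14-d (-0.68), as all 3 members were. Without control 3-d replicate 1 its 3-d changes were 0.55 in low-dose rats, no longer called, and 0.79 in high-dose rats, still called. miR-222-3p of the same list was called lower in low-dose rats at 3-d (-1.38, and -0.85 without that replicate). The 13 miRNAs described as anti-fibrotic or lowered gave 8 higher and 19 lower calls in 156 tests. miR-29a-3p, which targets collagen messenger RNAs, was called lower in 4 conditions, which were the low dose after 7 and 14 days (-0.96 and -0.90) and the high dose after 14 and 28 days (-0.72 and -0.74). Its 3-d change at the low dose was -0.48, and -0.83 and called without control 3-d replicate 1. miR-29b-3p of the same family was called higher in 2 conditions, the high dose after 3 and 7 days (1.27 and 0.71), and miR-101a-3p was also called higher in 2. miR-150-5p and miR-133a-3p were also called lower in 4 conditions each.

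Among cell markers, the 4 strands of miR-143 and miR-145, which mark smooth muscle and stellate cells, gave 0 higher and 6 lower calls in 48 tests. miR-145-5p gave 4 of these, all at the low dose, with log2 fold changes of -1.21, -1.07, -0.92 and -0.78 in the order of time (-0.94 at 3-d without control replicate 1), in libraries numbered 28 to 30 and 40 to 48, and miR-143-3p, the most abundant of them with a mean of 39341 RPM, gave none. At the low dose no member was called. miR-145-5p was not called at the high dose at 7-d (-0.58, edgeR adjusted p = 0.13), and miR-143-3p not at the high dose at 28-d (0.44, adjusted p = 0.148). The summed level of the 4 strands, which is mostly miR-143-3p, was 28064 to 45544 normalized RPM in the high dose 7-d rats against 40138 to 45481 in the 7-d controls, and 31704 to 36370 in the middle dose 28-d rats against 26205 to 43421 in the 28-d controls. In the high dose 28-d rats it was 41229 to 49393. Treated and control ranges overlapped in all 3 conditions in which miR-214-3p was called higher. The group means in the same order were 36112 against 42995, 34663 against 33383 and 44680 against 33383, so that at the high dose of 28-d the mean was above that of controls. In the high dose 14-d rats it was 39747 to 44651 against 42571 to 43950 in controls. Hepatocyte miRNAs gave 2 higher and 6 lower calls in 60 tests, leukocyte miRNAs 1 and 6 in 48, endothelial miRNAs 0 and 0 in 24, bile duct miRNAs 5 and 8 in 60, and red blood cell miRNAs 1 and 20 in 48. miR-122-5p, the most hepatocyte-specific of these, was called higher in low-dose rats after 7 and 14 days (0.75 and 0.67) and lower in middle-dose rats after 28 days (-0.61). The miRNAs called most often in the remaining lists were miR-122-3p (lower in 5 conditions), miR-200c-3p (higher in 4), miR-429 (lower in 4) and miR-144-3p (lower in 5, higher in 1). In each of the 3 conditions in which miR-199a-5p was called higher, 3 of the 4 red blood cell miRNAs were called lower, and at the middle dose after 14 days, where no member was called, all 4 were. Of all 301 tested miRNAs, 12 were called lower at the middle dose of 7-d and 10 at the high dose of 7-d. At the middle dose 16 were called lower at 14-d and 36 at 28-d. The treated libraries of these conditions are numbered 25 to 27 and 31 to 39, so that treatment and running number cannot be told apart. The part of the red blood cell miRNAs in the result was not tested.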

How the data were processed

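The deposited file gives unnormalized read counts of mature miRNAs. The authors obtained the counts with miRDeep2 from adaptor-trimmed reads mapped to miRBase, and the submitters' processing notes name the genome build rn5. The authors applied no normalization or filter to the deposited counts, and replicates were not pooled. Where several precursors list the same mature miRNA, only the row with the highest total was used, and each member has 1 row. Library totals were 293331 to 14906217 counts (median 10237542).

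Normalization (upper quartile) and quasi-likelihood F-tests were run with edgeR 4.0.16 in R 4.3.3 on the 301 miRNAs that reached 5 RPM in 3 or more of the 48 libraries, as 12 fits of 6 libraries and as 1 fit of all 48 for differences between doses and times. SEs follow from the F statistic and the fold change. Ratios used log2 of (count + 1) and exact permutation tests, and correlations used 100000 permutations (scipy 1.17.1). On simulated data of 3 against 3 libraries with 269 miRNAs tested, the edgeR rule called 44 of 44 changed 4-fold, 31 of 34 changed 2-fold and 6 of 191 unchanged.

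The members and lists were chosen with earlier results of these data known. Besides the members, the text names the 3 miRNAs most like each, 5 miRNAs fixed by name (miR-143-3p, miR-145-5p, miR-21-5p, miR-29a-3p and miR-122-5p) and those called most often in their list, while miR-222-3p, miR-29b-3p and miR-101a-3p were added after their values were seen. Other hairpins and the ranges of running numbers were chosen after the values had been seen. Alternatives covered normalization (TMM, DESeq2 1.42.0 size factors, library size), filters, DESeq2's Wald test, pooled controls, a single fit and leaving out each library. The rats are separate animals.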

Additional observations from a re-analysis of the deposited data

Results flagged for a closer look

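miR-199a-5p was marked because its level differed between the 3 TAA doses by a test of the difference itself, with edgeR adjusted p-values of 0.00546, 0.00209 and 0.0137 after 7, 14 and 28 days. At each of these times at least 1 dose group lies in another range of the running number in the labels than the others, so that dose and running number cannot be told apart.

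The effect of the high dose differed between time points for miR-199a-3p (edgeR adjusted p = 0.0162), miR-199a-5p (0.0268) and miR-214-3p (0.0162). Without the 7-d term, whose high-dose libraries are numbered 25 to 27, and in a fit of the libraries numbered 1 to 24, the edgeR adjusted p-values were 0.141, 0.146 and 0.155. With fewer libraries and time points, these values cannot show that the effects were equal.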

How the results depend on the processing

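Depth limited miR-214-5p (0 to 3 reads a library) and control 3-d replicate 1 (293331 counts). No paired analysis was possible because the running numbers 1 to 48 are unique to each library. No called value changed its direction. miR-199a-3p was called in 1 condition, but in 0 with TMM, library size alone, 5 RPM in every library, pooled controls or adjusted p-values and in 2 in a single fit, where the high dose at 3-d was added. miR-199a-5p fell from 4 to 2 with DESeq2 size factors or adjusted p-values, and miR-214-3p from 4 to 2 with TMM and to 1 with pooled controls or adjusted p-values. Tests of differences passed (dose, time and control level) fell from 2 to 0 (library size alone) or 1 (no filter) for miR-199a-3p and from 2 to 0 (no filter) for miR-214-3p. TMM moved the median log2 fold change of all miRNAs by -0.235 to 0.113, DESeq2 size factors by -0.219 to 0.122 and library size alone by -0.209 to 0.276. With medians, the difference of the log2 ratio of miR-214-3p to miR-199a-3p was 0.88 at 28-d (adjusted exact p = 0.0909) and 0.0363 at 3-d, and that of miR-199a-5p to miR-199a-3p was -0.0918 at 14-d. Pearson's r over all libraries was 0.374 for miR-199a-3p and miR-199a-5p, 0.0982 for miR-199a-3p and miR-214-3p and 0.314 for miR-199a-5p and miR-214-3p. Without the library of fewest counts the first 2 were 0.27 and 0.508. In libraries 1 to 24, the pairs with miR-214-3p had -0.0777 and 0.265. In libraries 25 to 39, they were 0.177, 0.805 and 0.376, and in libraries 40 to 48 miR-199a-5p and miR-214-3p had 0.633, which rests on 2 libraries (-0.163 without them, rho = -0.05). Leaving out single libraries gave 0 to 2 conditions called for miR-199a-3p (0 without control 14-d replicate 14), 3 to 4 for miR-199a-5p and 3 to 5 for miR-214-3p, and 1 to 2, 3 to 4 and 1 to 4 tests passed. It gave ratio differences of miR-214-3p to miR-199a-3p of -1.38 to 0.0712 at 3-d (without control replicate 1), -0.12 to 0.20 at 14-d and 0.81 to 1.20 at 28-d, where 9 rats against 2 controls can give no exact p below 0.0182, or 0.145 adjusted over 8 tests if no other passes, so that the value of 0.145 without each control says nothing about stability. Averaging precursor rows gave no other value, since each member has 1 row. The causes were not tested.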
